A study of Homo sapiens with 18 samples.

Results

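The early transcriptional response of U2932 cells to SGC-GAK-1 was taken from 6 of the 18 RNA-seq libraries of the series: 3 from cells exposed to the compound at 1 µM for 12 h and 3 from cells that received the vehicle DMSO. All 15138 genes that passed a filter on low counts, out of 60656 in the deposited table, were described. U2932 is an established human line of diffuse large B cell lymphoma that the labels class as activated B cell-like (ABC), grown in RPMI medium with serum. The other libraries are 3 of U2932 cells after 24 h of SGC-GAK-1 and 9 of Ly1, a line classed as germinal centre B cell-like (GCB), under the same 3 conditions. The labels give no exposure time for DMSO, so the action of the compound and the time in culture cannot be told apart, and they do not say whether the 3 replicates of a group were separate cultures, and the spread behind each p-value may thus be technical.

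SGC-GAK-1 blocks the kinase activity of GAK (cyclin G-associated kinase). The protein carries a kinase domain and a J domain related to auxilin, with which it recruits HSC70 to strip the coat from clathrin-coated vesicles, and it also takes part in mitotic spindle and centrosome function. A pathway that recurs below is the response to low oxygen, in which hypoxia-inducible factors bind DNA at a core of ACGTG or GCGTG and raise transcription of glycolytic enzymes, glucose and lactate transporters and histone demethylases. When oxygen is ample, prolyl hydroxylases mark these factors for destruction.

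The 6 libraries held 23898995 to 26316407 counted reads each, and 3 counts, the limit that a count of 0 allows for counting error only, corresponded to 0.115 to 0.126 CPM (counts per 1000000 of a TMM-scaled library total). Deviations from the group means were compared between DMSO and 12 h libraries of the same replicate number. They correlated across genes with r of 0.380, 0.430 and 0.666 for numbers 1, 2 and 3. For numbers 1 and 2 this can come from the distance of replicate 3 alone, since deviations within a group cancel out. Replicate 3 stood apart in both groups. MYC, for example, was at 331, 351 and 50.6 CPM in DMSO replicates 1, 2 and 3. At 12 h it was at 299, 322 and 58.3 CPM. Genes with a mean of 20 CPM or more over replicates 1 and 2 of both groups were also counted. Of these, 21 were lower by 4-fold or more in replicate 3 of both groups and 0 were higher by that much. Genes high only in replicate 3 miss this limit, so the counts of lower and higher genes cannot be compared. Mitochondrial transcripts took 9.86% of counts in DMSO replicate 3 and 5.98% to 7.58% in the other 5 libraries. Replicate number was therefore a block in the fit. For many results that rest on replicate 3, values without it or within each replicate number are given. All 6 B cell markers and all 6 markers of the activated B cell type were above 1 CPM, but so were all 6 of the germinal centre type, among them MME at a mean of 93.1 CPM. The summed level of the B cell markers was 2358 to 2646 CPM in DMSO and 2260 to 2336 CPM at 12 h, ranges that did not overlap. Myeloid markers summed to 0.829 to 1.03 CPM in DMSO and 0.712 to 0.927 CPM at 12 h, with 0 of 12 above 1 CPM, and 2 of 14 T and NK cell markers, 3 of 12 fibroblast and endothelial markers and 3 of 10 epithelial markers exceeded 1 CPM, of which EPCAM was at a mean of 34.5 CPM.

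Few genes differed at 12 h, and those that passed the test were all lower. At an adjusted p under 0.05 (edgeR's quasi-likelihood F test, adjusted over all tested genes by the Benjamini-Hochberg method), 9 of 15138 genes fell, which is 0.0595%, and 0 rose. An unadjusted p under 0.05 was reached by 1187 genes (7.84%), that is by 481 genes with higher values (3.18%) and 706 with lower values (4.66%), and the smallest adjusted p of a gene with a higher value was 0.106. In bulk RNA, fewer cells of a type and less RNA per cell cannot be told apart for any of these genes. The count depended on single libraries: 58 genes (0.377%), all lower, passed without DMSO replicate 3, whereas 2 passed without DMSO replicate 1, 3 (1 of them higher) without DMSO replicate 2, 2 without 12 h replicate 1, 2 without 12 h replicate 2 and 5 without 12 h replicate 3. With replicate 3 left out of every group, 653 genes (4.3%) passed, 246 higher and 407 lower (1.62% and 2.68% of 15192). With no block 0 genes passed and 517 had an unadjusted p under 0.05, while DESeq2 with the block called 45 (0.297%), 2 higher and 43 lower (0.0132% and 0.284%). Across the 15138 tested genes, the log2 change from DMSO to 12 h correlated only weakly between replicate numbers. The values of r were 0.135 for replicates 1 and 2, 0.020 for 1 and 3, and 0.066 for 2 and 3.

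**Figure D1:**
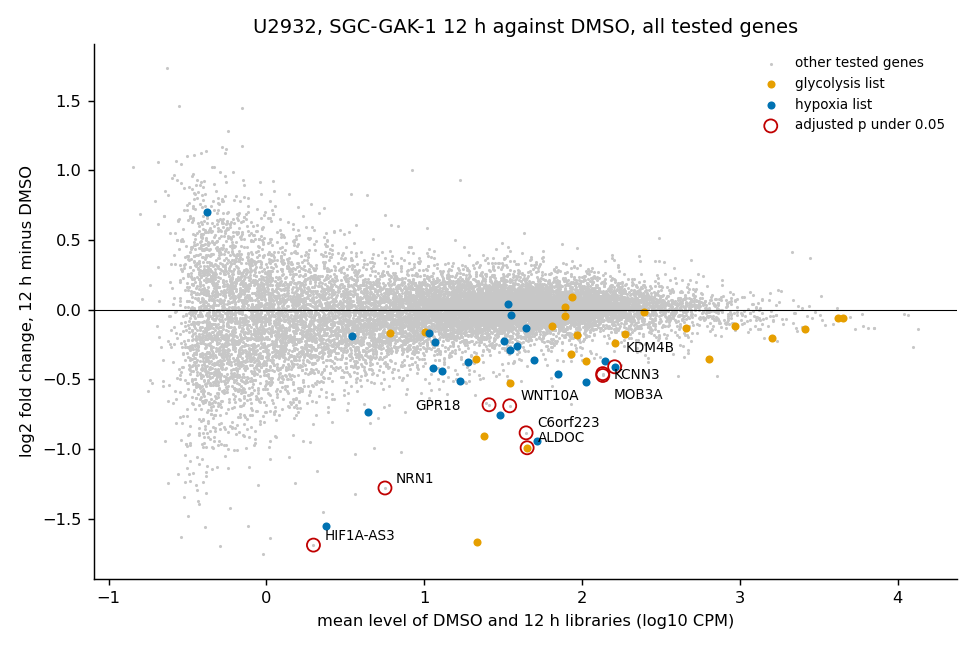
Log2 change of SGC-GAK-1 12 h against DMSO (vertical axis) against the mean level over the 6 libraries (log10 CPM, horizontal axis) for all 15138 tested genes. Red rings mark the 9 genes with an adjusted p under 0.05, all below the line at 0, and blue and orange points the members of the hypoxia and glycolysis lists, of which 21 of 23 and 22 of 24 lie below 0.

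ALDOC, aldolase C, a fructose-bisphosphate aldolase of glycolysis, fell by 0.99 on the log2 scale (SE 0.08, adjusted p = 0.000264). Its level was 50.7, 51.7 and 77.1 CPM in DMSO replicates 1, 2 and 3 and 27.9, 27.1 and 34.3 CPM at 12 h. All 3 treated libraries lay below all 3 controls, and the log2 differences within replicate numbers were -0.86, -0.93 and -1.17. C6orf223, an open reading frame on chromosome 6, had 52.1, 53.2 and 66.5 CPM in DMSO and 31.3, 27.2 and 34.5 CPM at 12 h. The groups did not overlap, and the gene fell by 0.88 (SE 0.09, adjusted p = 0.00141). These are the only genes of the 9 that kept an adjusted p under 0.05 with each of the 6 libraries left out in turn, with a highest value of 0.0265 for ALDOC and 0.0374 for C6orf223. Without the block their adjusted p was 0.884 and 0.334.

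WNT10A, a secreted ligand of WNT receptors, measured 41.9, 39.2 and 47.3 CPM in DMSO and 26.7, 21.9 and 31.5 CPM at 12 h. It fell by 0.69 (SE 0.08, adjusted p = 0.00377), without overlap of the groups. KDM4B, a lysine demethylase of histone H3, had the tightest controls of the called genes, at 184, 184 and 182 CPM against 133, 143 and 139 CPM after 12 h. The groups were well apart although the change was small, a fall of 0.41 (SE 0.06, adjusted p = 0.0323). KCNN3, a calcium-activated potassium channel of small conductance, was at 146, 149 and 172 CPM in DMSO and at 105, 105 and 133 CPM at 12 h. It fell by 0.46 (SE 0.07, adjusted p = 0.0323), and in both groups replicate 3 was the highest. GPR18, a G protein-coupled receptor of lymphocytes, gave 33.0, 35.8 and 26.5 CPM in DMSO and 22.3, 17.8 and 18.9 CPM at 12 h. The fall of 0.68 (SE 0.11, adjusted p = 0.0475) was the one nearest the threshold, and its groups did not overlap.

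In MOB3A and NRN1 the groups overlapped, because replicate 3 stood apart in both, and the falls showed within replicate numbers. MOB3A, a member of the MOB family of kinase-binding adaptors, had 132, 150 and 186 CPM in DMSO and 95.4, 95.7 and 152 CPM at 12 h. Its fall was 0.47 (SE 0.07, adjusted p = 0.0323), with differences of -0.47, -0.65 and -0.29 in replicates 1, 2 and 3. NRN1, neuritin, a small membrane-anchored protein first known from neurons, was at 9.93, 10.3 and 3.95 CPM in DMSO and at 3.37, 4.06 and 2.22 CPM at 12 h. It fell by 1.28 (SE 0.19, adjusted p = 0.0338), with differences of -1.53, -1.32 and -0.81. The last of the 9 was the long noncoding HIF1A-AS3, at 2.18, 2.14 and 4.70 CPM in DMSO and 0.632, 0.410 and 1.84 CPM at 12 h, a fall of 1.69 (SE 0.26, adjusted p = 0.0338). It was too low for the rule on named genes, was named after its values were seen, and lies antisense to HIF1A, so that without stated use of strand its reads cannot be told from those of HIF1A. HIF1A itself, which encodes the oxygen-regulated subunit of the factor, had means of 182 ± 15.5 (SD, n = 3) and 192 ± 25.8 CPM and a log2 change of 0.07 (SE 0.07, adjusted p = 0.847). In the deposited coordinates ALDOC, C6orf223, MOB3A and GPR18 also overlap other genes, with which reads could be shared.

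**Figure D2:**
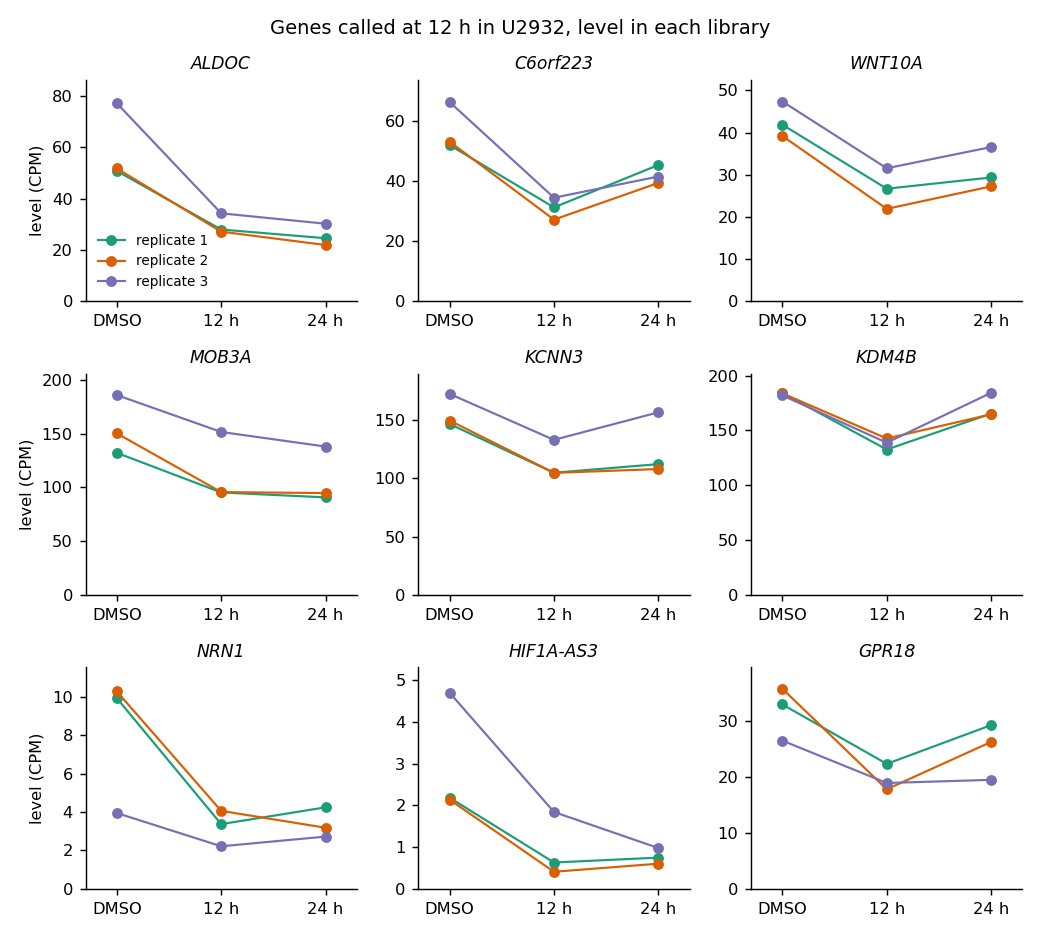
Level in CPM (vertical axis, from 0) of the 9 genes with an adjusted p under 0.05, in DMSO and after 12 h and 24 h of SGC-GAK-1 (horizontal axis), with one line for each replicate number in U2932. Every line drops from DMSO to 12 h; KDM4B goes from 183 to 138 CPM on average.

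The bases upstream of the start of 3 called genes are shown because the hypoxia response is read through ACGTG and GCGTG, which ALDOC and KDM4B hold and WNT10A does not. The sequences are the 250 bases before the RefSeq start in GRCh38.p14, written 5′ to 3′ on the strand of the gene, with ACGTG and GCGTG on either strand in capitals (ACGTG on both strands overlaps as CACGTG). ALDOC lies on the minus strand at chr17:28576896-28577145, KDM4B on the plus strand at chr19:4968863-4969112 and WNT10A on the plus strand at chr2:218880602-218880851.
ALDOC: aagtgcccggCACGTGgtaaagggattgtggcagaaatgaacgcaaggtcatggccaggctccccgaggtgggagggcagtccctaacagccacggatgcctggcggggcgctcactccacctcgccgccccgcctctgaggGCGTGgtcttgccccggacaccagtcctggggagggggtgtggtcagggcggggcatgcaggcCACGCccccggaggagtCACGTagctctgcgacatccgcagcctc
KDM4B: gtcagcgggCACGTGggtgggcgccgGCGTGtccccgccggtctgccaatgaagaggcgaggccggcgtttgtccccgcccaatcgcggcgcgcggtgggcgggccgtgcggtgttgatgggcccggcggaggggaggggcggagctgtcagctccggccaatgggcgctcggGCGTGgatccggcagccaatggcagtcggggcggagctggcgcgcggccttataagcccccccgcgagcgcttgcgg
WNT10A: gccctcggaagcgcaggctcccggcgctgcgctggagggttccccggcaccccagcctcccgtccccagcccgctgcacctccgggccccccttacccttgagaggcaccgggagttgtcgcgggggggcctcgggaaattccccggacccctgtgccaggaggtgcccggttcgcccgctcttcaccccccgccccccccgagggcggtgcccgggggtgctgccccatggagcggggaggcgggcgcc
The ALDOC stretch holds 5 matches, the KDM4B stretch 4 and the WNT10A stretch 0. All 9 called genes matched RefSeq entries, with 11 promoter windows of 250 bases before to 50 after a start, and 6 of these windows (54.5%) held at least 1 of the motifs on either strand, beside 48.4% of all 35116 RefSeq windows. A match of 5 letters is a description and not a binding site.

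Genes of the hypoxia response that act outside glycolysis were lower at 12 h over most of the list, although few members passed the test. Of 25 listed genes, 23 were tested and CA9 and CA12 were not. The test called 1 lower (KDM4B) and 0 higher, 15 had an unadjusted p under 0.05 with lower values against 4.66% of all genes, and 18 were lower in all 3 replicate numbers against 16.2% of all genes. The median log2 change was -0.37, against -0.003 for all tested genes, and -0.41, -0.38 and -0.28 within replicates 1, 2 and 3. The groups did not overlap in 16 of the 23, against 8.42% of all genes, of which 4.59% had the 12 h libraries lower. With DMSO replicate 3 left out 9 members were called lower, beside 0.377% of all genes in that fit, and with replicate 3 left out of every group 14 were, beside 2.68%, with medians of -0.41 and -0.42.

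Other members did not pass the test, some of them narrowly. BNIP3L, a receptor that marks mitochondria for autophagy, was at 121, 133 and 121 CPM in DMSO and at 87.5, 77.1 and 98.9 CPM at 12 h, with no overlap and a log2 change of -0.52 (SE 0.09, adjusted p = 0.0568). KDM3A, a demethylase of histone H3 lysine residues and a relative of KDM4B in its dependence on oxygen, was at 82.7, 86.4 and 74.1 CPM against 58.6, 57.5 and 60.9 CPM, with a log2 change of -0.46 (SE 0.08, adjusted p = 0.0627). The 12 h libraries of KDM3A lay close together and all below the controls. ZNF395 had 151, 158 and 165 CPM in DMSO and 112, 113 and 145 CPM at 12 h, a log2 change of -0.37 (SE 0.07, adjusted p = 0.0714) that was smallest in replicate 3. P4HA1, a subunit of the prolyl hydroxylase that modifies collagen, was at 43.4, 44.4 and 26.7 CPM and then at 24.9, 23.0 and 19.4 CPM, with a log2 change of -0.75 (SE 0.13, adjusted p = 0.0903). BNIP3, the partner of BNIP3L in mitophagy, was at 76.4, 74.8 and 51.9 CPM against 34.8, 32.5 and 38.5 CPM. Its fitted change of -0.94 was larger than those of BNIP3L and KDM3A, but the control of replicate 3 was lower than the other 2 and its adjusted p was 0.256 (SE 0.18). VEGFA, the vascular endothelial growth factor, was at 19.8 ± 3.66 (SD, n = 3) and then at 13.8 ± 1.24 CPM, without overlap of the groups and with a log2 change of -0.51 (SE 0.12, adjusted p = 0.198). Not all members were lower: ADM, which encodes the peptide adrenomedullin, was at 30.3, 29.7 and 41.1 CPM in DMSO and 34.7, 31.0 and 37.6 CPM at 12 h, with overlapping groups and a log2 change of 0.04 (SE 0.10, adjusted p = 0.941). The oxygen-sensing hydroxylase EGLN1 was at means of 3.69 ± 0.655 (SD, n = 3) and 3.23 ± 0.421 CPM and did not pass the test (adjusted p = 0.843).

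Among 24 glycolysis genes, all tested, ALDOC was the 1 called lower and 0 were called higher. A lower value was found in 22, with an unadjusted p under 0.05 in 10, beside 4.66% of all genes. The list median was -0.17, but within replicate numbers it was -0.26, -0.32 and 0.01, and in replicate 3 members lay on both sides of 0, with ALDOC lowest. With DMSO replicate 3 left out 9 members were called lower, beside 0.377% of all genes in that fit, and 16 with replicate 3 left out of every group, beside 2.68%. PGK1, phosphoglycerate kinase, was closest to the threshold after ALDOC, at 730, 768 and 640 CPM in DMSO and 584, 571 and 520 CPM at 12 h, with a log2 change of -0.35 (SE 0.06, adjusted p = 0.0510). Its groups did not overlap and each replicate was lower after treatment. PFKFB3, which makes the activator of phosphofructokinase, was at 116, 111 and 128 CPM against 82.5, 80.0 and 116 CPM, with a log2 change of -0.37 (SE 0.07, adjusted p = 0.0981). Its relative PFKFB4 was at 40.0, 38.0 and 19.5 CPM in DMSO and at 10.6, 6.97 and 13.6 CPM at 12 h. The fitted change of PFKFB4 was -1.67, yet its adjusted p was 0.495 (SE 0.43), since the difference in replicate 3 was far smaller than in the other 2. With replicate 3 left out of every group PFKFB4 fell by 2.16 (SE 0.10, adjusted p = 6.57e-15), the largest fall of the list in that fit. SLC16A3, an exporter of lactate, was at 32.3, 31.8 and 28.8 CPM and then at 17.4, 11.2 and 22.6 CPM, with a log2 change of -0.90 (SE 0.18, adjusted p = 0.222).

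HK2, hexokinase 2, changed direction with replicate number, from 119 to 74.4 CPM in replicate 1 and from 129 to 84.6 CPM in replicate 2, but from 43.5 to 57.8 CPM in replicate 3. The fitted change of HK2 was -0.32 (SE 0.23, adjusted p = 0.809), and without replicate 3 it fell by 0.64 (SE 0.05, adjusted p = 4.34e-10). PDK1, the kinase that restrains entry of pyruvate into mitochondria, likewise went from 45.7 to 28.4 and from 50.2 to 27.1 CPM in replicates 1 and 2 but from 28.3 to 29.5 CPM in replicate 3, with an adjusted p of 0.550. Other enzymes had fitted values close to 0: GAPDH was at 4611 ± 284 (SD, n = 3) and 4437 ± 315 CPM, with a log2 change of -0.06 (SE 0.05, adjusted p = 0.832), and PKM had -0.06 (SE 0.06, adjusted p = 0.861). Several glycolytic genes, GAPDH and PGK1 among them, have processed pseudogenes that could share reads.

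**Figure D3:**
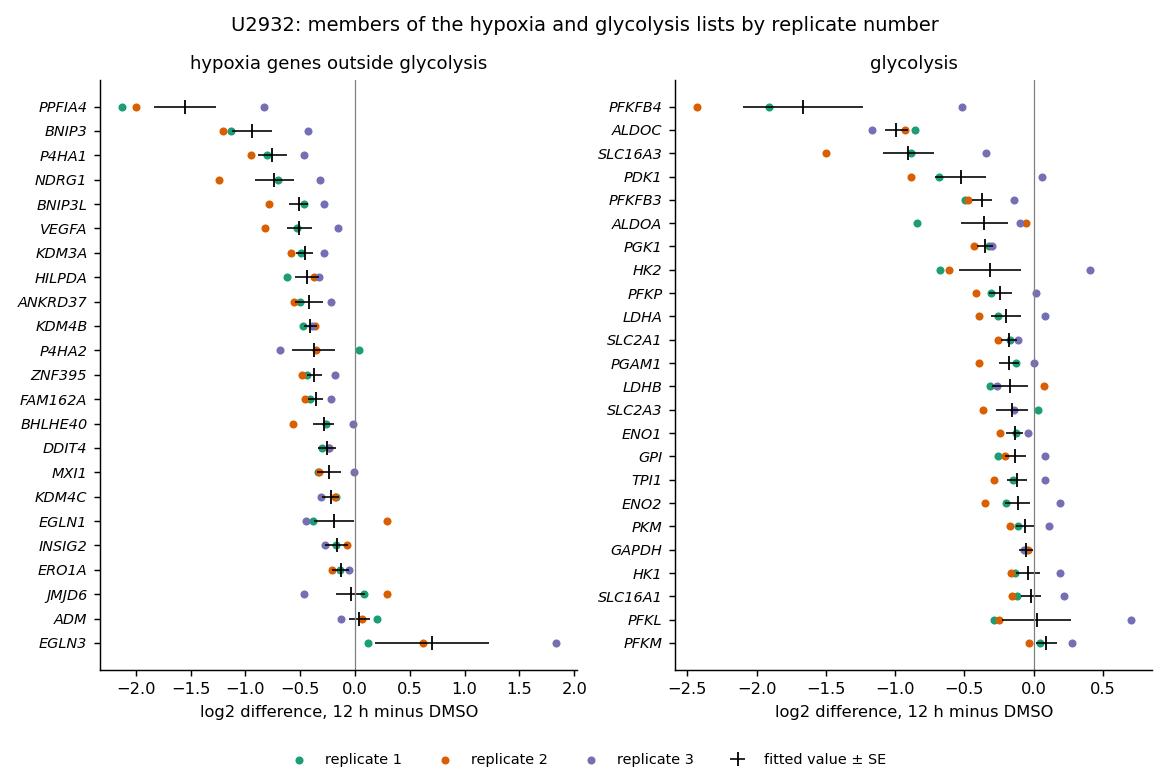
Log2 difference of 12 h minus DMSO (horizontal axis) for the tested members of the hypoxia list (left) and the glycolysis list (right), one row for each gene. Coloured points are the differences within replicate numbers, and black ticks with bars are fitted values ± SE; green and orange points lie left of 0 for most genes, and the purple points of replicate 3 lie right of the other 2 in genes such as HK2 and PDK1 and left of them in others such as ALDOC and JMJD6.

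A further 24 genes had an adjusted p from 0.05 to 0.1 in the same test, and all 24 had lower values at 12 h. Together with the 9 they make up 0.218% of the tested genes. Apart from the hypoxia and glycolysis genes above, they include ATF5, a transcription factor of the stress response, at 867, 761 and 852 CPM in DMSO and 575, 537 and 686 CPM at 12 h. Its groups did not overlap, and its log2 change was -0.47 (SE 0.08, adjusted p = 0.0568). GCSAM, a signalling adaptor of germinal centre B cells, was at 73.7 ± 4.66 (SD, n = 3) and then at 52.5 ± 6.23 CPM, with a log2 change of -0.49 (SE 0.08, adjusted p = 0.0510). FADS2, a fatty acid desaturase, was at 296, 306 and 276 CPM and then at 256, 227 and 197 CPM, with a log2 change of -0.37 (SE 0.06, adjusted p = 0.0510). CDKN1C, an inhibitor of cyclin-dependent kinases, was at 8.09, 6.87 and 13.9 CPM in DMSO and 4.38, 4.43 and 5.07 CPM at 12 h, with a log2 change of -1.02 (SE 0.18, adjusted p = 0.0714). All of ATF5, GCSAM, FADS2 and CDKN1C had every treated library below every control. MIR210HG, the host transcript of a hypoxia-induced microRNA, had 6.71, 5.71 and 3.28 CPM in DMSO and 2.07, 1.93 and 2.18 CPM at 12 h, and its log2 change was -1.32 (SE 0.25, adjusted p = 0.0917).

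No gene rose by the test, and the genes with the smallest p among higher values that met the other limits of the naming rule are given as values. SRSF2, a splicing factor, was at 314, 293 and 200 CPM in DMSO and 379, 385 and 261 CPM at 12 h, a log2 change of 0.35 (SE 0.07, adjusted p = 0.106). It was higher in each replicate number, while the groups overlapped through the low replicate 3. MCOLN2, an endolysosomal cation channel, was at 46.7, 46.9 and 49.1 CPM against 58.9, 56.9 and 61.5 CPM, with no overlap and a log2 change of 0.31 (SE 0.06, adjusted p = 0.124). DGKG, a diacylglycerol kinase, was at 4.22, 4.85 and 3.95 CPM against 6.87, 8.12 and 5.95 CPM, with no overlap and a log2 change of 0.68 (SE 0.15, adjusted p = 0.178). CDC25A, the phosphatase that activates cyclin-dependent kinases at the start of S phase, was at 71.5, 74.6 and 67.6 CPM against 82.7, 88.4 and 85.5 CPM, with a log2 change of 0.26 (SE 0.06, adjusted p = 0.194). LYAR, a nucleolar protein, had a log2 change of 0.29 (SE 0.07, adjusted p = 0.222), PSMC3IP, a cofactor of meiotic recombination, had 0.34 (SE 0.08, adjusted p = 0.222), LUC7L, a splicing-related protein, had 0.31 (SE 0.08, adjusted p = 0.228), and TUBG1, the gamma-tubulin of the centrosome, had 0.32 (SE 0.08, adjusted p = 0.236).

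Cell cycle genes did not pass the test in either direction at 12 h. In the lists of mitosis, kinetochore and tubulins, the size of the higher values was set mostly by replicate 3. Of 55 genes of G2 and mitosis, 0 were called and 0 had an unadjusted p under 0.05, although 53 had values above 0 and the median was 0.22. Within replicates 1, 2 and 3 the medians were 0.03, 0.05 and 0.76. The median was -0.08 without DMSO replicate 3 and 0.04 with replicate 3 left out of every group, a fit in which BIRC5, FAM83D, AURKA and GTSE1 were called higher, beside 1.62% of all genes. NCAPG, a subunit of the condensin complex that compacts mitotic chromosomes, shows the pattern: it was at 162, 170 and 74.9 CPM in DMSO and at 176, 187 and 158 CPM at 12 h. DMSO replicate 3 was the low library, and the log2 change was 0.40 (SE 0.32, adjusted p = 0.826). CCNB1, cyclin B1, the activator of CDK1 at entry into mitosis, was at 197, 208 and 101 CPM and then at 227, 215 and 130 CPM (log2 change 0.19, SE 0.36, adjusted p = 0.925). The 16 tested genes of the spindle assembly checkpoint and kinetochore had medians of 0.07, 0.03 and 0.72 in replicates 1, 2 and 3, and the 12 tubulins 0.09, 0.06 and 0.65, with 0 called in each list. Replication-dependent histones, whose transcripts are made in S phase and can share reads among near-identical copies, had medians of -0.38, -0.28 and 0.10, with 0 of 28 called. Their DMSO means ran from 0.305 CPM for H1-3 to 112 CPM for H2BC12, and low members add counting noise to these medians. Among S phase genes, GINS3 had even differences of 0.23, 0.17 and 0.27 in replicates 1, 2 and 3 (log2 change 0.22, SE 0.07, adjusted p = 0.457). ORC1 had 0.17, 0.14 and 0.59, largest in replicate 3.

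**Figure D4:**
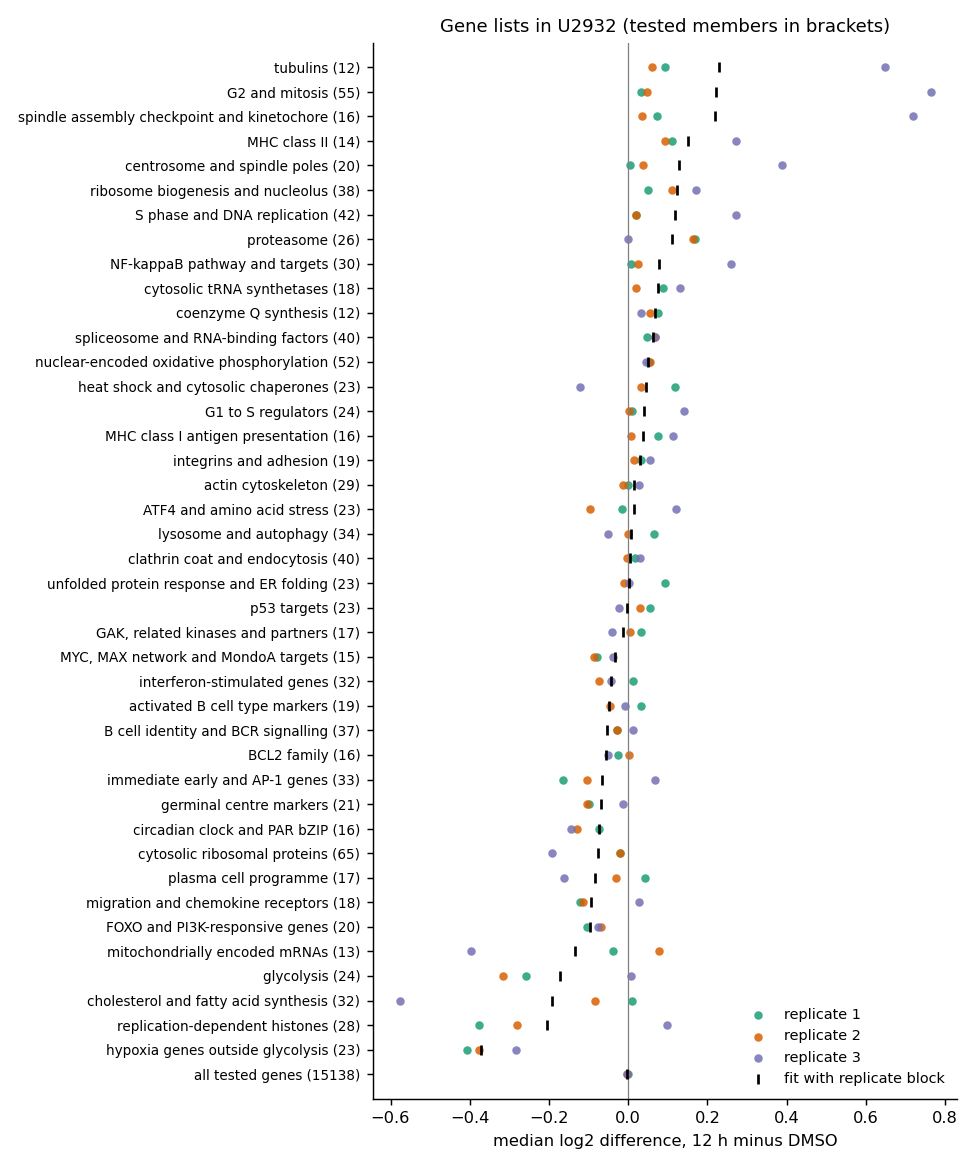
Median log2 difference of 12 h minus DMSO (horizontal axis) over the tested members of the gene lists other than markers of other cell types (rows, with the number of tested members), within replicate 1, 2 and 3 (coloured points) and in the fit with the replicate block (black bars). The hypoxia list is the lowest row above all tested genes, at -0.37, with its 3 points together, whereas for G2 and mitosis replicate 3 lies at 0.76 and the other 2 points near 0.

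Lists of biosynthesis showed small shifts in which 0 members passed the test. Ribosome biogenesis genes had values above 0 in 34 of 38 and an unadjusted p under 0.05 in 17, all higher, beside 3.18% of all genes. Their median was 0.12, and 0.05, 0.11 and 0.17 within replicate numbers. DKC1, the pseudouridine synthase dyskerin, was at 241, 241 and 204 CPM in DMSO and 266, 273 and 234 CPM at 12 h, higher in each replicate number (log2 change 0.18, SE 0.05, adjusted p = 0.385). Proteasome genes had values above 0 in 25 of 26, with a median of 0.11 and with 0.17, 0.16 and -0.00 within replicate numbers. With replicate 3 left out of every group, 12 of 26 proteasome and 7 of 38 ribosome biogenesis genes were called higher, beside 1.62% of all genes in that fit. PSMD11, a subunit of the regulatory particle, was at 201, 210 and 209 CPM and then at 235, 245 and 221 CPM (log2 change 0.18, SE 0.06, adjusted p = 0.431). Cytosolic ribosomal protein genes, which share reads with many pseudogenes, were below 0 in 59 of 65 with a median of -0.07.

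Cholesterol and fatty acid synthesis genes were below 0 in 29 of 32, with an unadjusted p under 0.05 and lower values in 11, beside 4.66% of all genes, and a median of -0.19. The medians within replicate numbers were 0.01, -0.08 and -0.58, and the fitted median was -0.07 without DMSO replicate 3. With replicate 3 left out of every group it was -0.04, and 7 members were called lower, beside 2.68% of all genes. SCD, the desaturase that makes oleate, went from 457, 496 and 447 CPM to 405, 378 and 246 CPM, with the lowest value in 12 h replicate 3 and a log2 change of -0.48 (SE 0.11, adjusted p = 0.272). The 13 mitochondrially encoded mRNAs had medians of -0.04, 0.08 and -0.40, and the share of counts from mitochondrial transcripts in replicate 3 was 9.86% in DMSO and 7.58% at 12 h. The part of that library in the lipid and mitochondrial values was not tested beyond leaving it out.

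No gene of the B cell lists passed the test with all libraries. Of 37 genes of B cell identity and receptor signalling 0 passed, with a median of -0.05, and of 19 activated B cell type markers 0 passed, with a median of -0.05. Germinal centre markers were below 0 in 17 of 21, led by GCSAM and by CD38, an ectoenzyme, at 153, 158 and 154 CPM in DMSO and 132, 130 and 131 CPM at 12 h. The CD38 groups did not overlap, and its log2 change was -0.24 (SE 0.05, adjusted p = 0.194). MHC class II genes, which present antigen to T cells, were above 0 in 13 of 14 with a median of 0.15. HLA-DRA was at 319, 322 and 203 CPM and then at 357, 351 and 267 CPM, higher in each replicate number (log2 change 0.22, SE 0.06, adjusted p = 0.352). CIITA, another member, had differences of -0.22, -0.02 and 0.74 in replicates 1, 2 and 3.

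Replicates 1 and 2 were far closer to each other than to replicate 3. The fit that left replicate 3 out of every group had only these 2 libraries in each, and its p-values measure their spread alone. It called genes of other groups that the full fit did not. Its share over all genes was 1.62% higher and 2.68% lower, beside which the counts of members stand. Among splicing factors, 8 of 40 were called higher and 2 lower. CLK1, a kinase of splicing factors, rose by 0.59 in that fit (SE 0.07, adjusted p = 1.09e-05) and SRSF2 by 0.33 (SE 0.05, adjusted p = 2.07e-05). Of 33 immediate early genes 5 were called lower and 0 higher, and EGR1, a transcription factor induced by growth signals, fell by 0.58 (SE 0.06, adjusted p = 3.11e-07). TXNIP, a glucose-responsive inhibitor of glucose uptake, fell by 0.53 (SE 0.07, adjusted p = 8.96e-06). With all libraries TXNIP had -0.54 (SE 0.12, adjusted p = 0.222), with differences of -0.42, -0.64 and -0.56 in replicates 1, 2 and 3. Of 37 B cell identity genes 6 were called lower and 1 higher, and the lower ones include CD22, an inhibitory co-receptor of the B cell receptor. CD22 was at 229 and 225 CPM in DMSO replicates 1 and 2 and at 179 and 180 CPM at 12 h, but at 180 and then 190 CPM in replicate 3. It fell by 0.34 without replicate 3 (SE 0.05, adjusted p = 1.04e-05) and had -0.20 with it (SE 0.08, adjusted p = 0.562). Of 21 germinal centre markers 4 were called lower: GCSAM, SERPINA9, BCL6 and CD38.

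The transcript of the inhibited kinase itself did not pass the test. GAK was at 63.3, 64.4 and 64.0 CPM in DMSO and 64.8, 66.6 and 57.2 CPM at 12 h, with a log2 change of -0.02 (SE 0.07, adjusted p = 0.953). The groups overlapped, and the value checks no label, since the compound acts on the protein. Its closest relatives AAK1 and BMP2K, kinases of clathrin-mediated endocytosis, had log2 changes of 0.05 (SE 0.10) and 0.15 (SE 0.06), and DNAJC6, the other auxilin, had 0.07 (SE 0.08), with adjusted p-values of 0.927, 0.567 and 0.858. The 40 tested genes of the clathrin coat and endocytosis had a median of 0.00, with 20 above and 20 below 0 and 0 called. CCNG1, the cyclin for which the kinase is named, had -0.02 (SE 0.07, adjusted p = 0.966), RIPK2 0.10 (SE 0.08, adjusted p = 0.814) and COQ8A, an atypical kinase of coenzyme Q synthesis, 0.02 (SE 0.07, adjusted p = 0.968). MYC, for all its difference between replicate numbers, had a log2 change of -0.03 (SE 0.08, adjusted p = 0.960). CDKN1A, the p53-induced cell cycle inhibitor, had -0.14 (SE 0.12, adjusted p = 0.822), and RB1 0.11 (SE 0.08, adjusted p = 0.795).

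The libraries of 24 h were compared with those of 12 h directly. This contrast does not compare with the DMSO controls, although they stay in the fit and in its estimate of the spread. It uses the same 12 h libraries whose low values chose the 9 genes, which favours a rise from 12 h among them. In this contrast 151 genes passed (0.997%), 115 higher (0.76%) and 36 lower (0.238%) at 24 h than at 12 h. Of the 9 genes called at 12 h, 2 were among them. KDM4B rose from a mean of 138 CPM at 12 h to 165, 165 and 184 CPM at 24 h, by 0.31 (SE 0.06, adjusted p = 0.0326), and C6orf223 rose to 45.5, 39.5 and 41.6 CPM, by 0.45 (SE 0.09, adjusted p = 0.0351). ALDOC was at 24.6, 21.9 and 30.2 CPM at 24 h, and its difference from 12 h was -0.22 (SE 0.08, adjusted p = 0.200). The comparison of 24 h with DMSO uses the same 3 controls, so its values are set beside those of 12 h and not counted as a repeat. All 9 genes were below DMSO at 24 h and 7 of them were called there, beside 2.17% of all genes called lower. On this scale KDM4B was at -0.41 at 12 h and -0.10 at 24 h (adjusted p = 0.377), C6orf223 at -0.88 and -0.43 (adjusted p = 0.0200) and ALDOC at -0.99 and -1.22 (adjusted p = 2.48e-05). The hypoxia list had medians of -0.37 and -0.33 at the 2 times, with 1 and 8 members called lower beside 0.0595% and 2.17% of all genes, and glycolysis had -0.17 and -0.25, with 1 and 7.

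The same treatment of Ly1 gave no gene whose 12 h response differed from that of U2932 at an adjusted p under 0.05: 0 of 16191 genes passed edgeR's interaction test with the line by replicate block, the smallest adjusted p was 0.0564, 756 genes (4.67%) had an unadjusted p under 0.05, and limma voom called 3. For ALDOC the change in Ly1 was -1.32 (SE 0.34) and the U2932 value was higher by 0.33 (SE 0.47). The lines spread differently over replicate numbers. The hypoxia list had medians of -0.11, -0.09 and -1.02 in Ly1 replicates 1, 2 and 3 against -0.41, -0.38 and -0.28 in U2932, and glycolysis had -0.06, -0.03 and -0.78 against -0.26, -0.32 and 0.01. ALDOC in Ly1 was at 69.9, 69.9 and 196 CPM in DMSO and at 47.9, 45.4 and 30.9 CPM at 12 h. DMSO replicate 3 was the high control for ALDOC in both lines, in U2932 at 77.1 CPM beside 50.7 and 51.7 CPM.

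**Figure D5:**
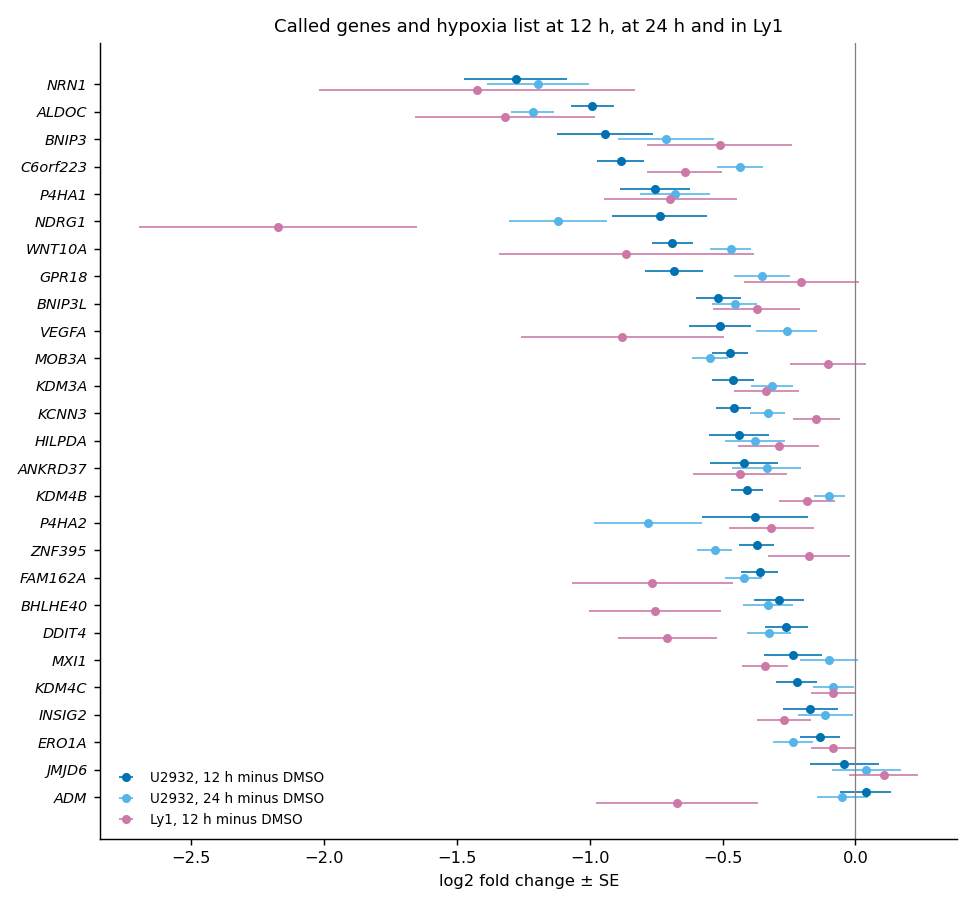
Log2 change ± SE (horizontal axis) against DMSO for genes of the called set and the hypoxia list with a mean of at least 5 CPM (rows), in U2932 at 12 h (dark blue) and 24 h (light blue), which share their DMSO libraries, and in Ly1 at 12 h (pink). The bars of Ly1 are wider than those of U2932 for most rows, as for NDRG1, and KDM4B moves from -0.41 at 12 h to -0.10 at 24 h.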

How the data were processed

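RNA-seq libraries of U2932 cells were compared, 3 after 12 h of SGC-GAK-1 and 3 after DMSO. The deposited table holds whole-number read counts per gene for 18 libraries. Per the submitters' processing notes, reads were handled with cutadapt, STAR and Picard on hg38; how genes were counted, whether strand was used, software versions and the annotation are not given in the sources. Per the labels' protocols, messenger RNA libraries were made with a NuGEN kit and reads of 2 runs were combined.

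Counts were tested with edgeR 4.0.16 (TMM scaling, filterByExpr, robust quasi-likelihood F test, Benjamini-Hochberg adjustment, threshold 0.05) on the 9 U2932 libraries in 3 groups with replicate number as a block, which leaves 4 residual degrees of freedom. The pairing rests on the data, as no label states it: the deviations of same-numbered DMSO and 12 h libraries correlated above 0.1 for all 3 numbers. Deviations within a group cancel out, so the distance of replicate 3 alone makes numbers 1 and 2 correlate. How numbers 1 and 2 pair was thus not tested. Differences within replicate numbers are of log2 CPM with a prior count of 2. No pair of libraries agreed within sampling noise. Relative to that noise, the mean squared difference per gene was 8.54 for DMSO replicates 1 and 2. It was 71.5 and 77.7 for DMSO pairs with replicate 3. At 12 h the values were 4.09 for replicates 1 and 2, and 34.4 and 32.6 for pairs with replicate 3. Alternatives were DESeq2 1.42.0, limma 3.58.1, other scalings and filters, no block, and leaving out libraries. R was 4.3.3, Python 3.11.15, pandas 2.3.3 and matplotlib 3.10.9.

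The genes, the 45 hand-written gene lists and the tests were chosen with earlier results of these data known, and no list was tested as a set. Named genes are called protein-coding genes with at least 5 CPM in the higher group and the same sign in every replicate number, up to 4 members with the smallest p of lists with a called member, and 11 fixed genes. Further genes in the text were chosen after their values were seen: those with an adjusted p under 0.1, the higher genes with the smallest p, and examples of the lists.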

Additional observations from a re-analysis of the deposited data

How the results depend on the processing

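The count of 9 genes called at 12 h, all lower, became 0 with no replicate block, 5 with library size only, 3 with limma voom and the block, 3 with a stricter low-count filter, 45 with DESeq2 and the block (2 higher, 43 lower), 159 with no low-count filter (32 higher, 127 lower), 653 without all replicate 3 libraries (246 higher, 407 lower) and, as a choice made after seeing the data, 33 at an adjusted p under 0.1 (33 lower). With 1 library left out it ranged from 2 to 58, with 0 to 1 higher and 2 to 58 lower; leaving out a library leaves 2 in its group, and the cause was not tested. Under DESeq2 size factors 9 genes passed, all of the 9, and with the block on the 6 libraries only 6 passed, 5 of the 9. The 9 genes stayed below 0 under each alternative in which they were tested (8 were tested under the stricter filter). The count at 24 h against 12 h, 151, became 0 with no replicate block, 239 with library size only and 89 with limma voom, and the count of 0 genes whose 12 h response differed between lines became 3 with limma voom. Log2 changes near 0 changed sign with a library left out, each with an adjusted p above 0.05. With 1 library left out GAK ranged from -0.076 to 0.062, AAK1 from -0.038 to 0.16, CCNG1 from -0.075 to 0.067, COQ8A from -0.018 to 0.058, MYC from -0.16 to 0.060, CCNB1 from -0.057 to 0.38 and CDKN1A from -0.25 to 0.041. Without all replicate 3 libraries GAK became 0.041 and CCNG1 0.048.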
